A study of Mus musculus with 2 samples.

Results

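The genes described here are 10 secreted trophic factors or their partners: Igf1, Igfbp4, Pdgfa, Pdgfb, Vegfa, Grn, Mif, Ptn, Mdk and Osm. They were taken by symbol from the feature list, 10 of 31053 features, and each had at least 1 UMI (a unique molecule counted) in both libraries. The data were 10x single-cell transcriptomes of cells from hypothalamic and thalamic tissue of E15.5 mouse embryos, sorted for the myeloid and blood-cell surface proteins Cd11b and Cd45. All embryos were of the outbred CD1 strain and carried no transgene. The control library pooled 10 embryos of 1 unstressed dam, and the stressed library pooled 5 embryos of 1 dam placed at 4 °C for 30 min a day over 5 days from E11.5. Each condition was thus 1 pool of littermates in 1 library, so no test between conditions was possible, differences have no replicate check, and litter, sex and treatment cannot be told apart. Every interval below is at 95% and covers counting error only.

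Microglia are the resident macrophages of the brain, and in the embryo they are a source of secreted factors that act on neighbouring progenitors, neurons and vessels. Insulin-like growth factor 1, the product of Igf1, signals through the receptor encoded by Igf1r, and binding proteins such as that of Igfbp4 hold the ligand away from it. Platelet-derived growth factors (Pdgfa, Pdgfb) act on glial precursors and pericytes, and Vegfa on endothelium. Progranulin (Grn) is a lysosomal and secreted protein, Mif a cytokine-like factor that binds Cd74, and oncostatin M (Osm) a cytokine of the interleukin-6 family. Pleiotrophin (Ptn) and midkine (Mdk) are heparin-binding factors of the developing nervous system, with Ptprz1 among their receptors.

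After cells with under 500 genes or over 10% mitochondrial UMIs were left out, 1068 of 1156 control and 1407 of 1467 stressed barcodes remained. Cells were assigned to a class from marker genes that include no member. There were 684 control and 1167 stressed microglia-like cells, 67 and 18 border-associated macrophage-like cells, and 207 and 156 neural-like cells, although neural cells are not a target of the sort. Of the 14 markers that define the microglia-like class, among them P2ry12, Tmem119 and Sall1, none was at 0 in it in either library. The class was set by the sum of these markers, so their presence in it is a description. The microglia-like sums held 1785391 control and 5356428 stressed UMIs, with medians of 2180.5 and 4002 UMIs per cell. Cells with Xist and no Y-linked transcript made up 32.9% of control and 93.1% of stressed microglia-like cells. The libraries shared 13 barcodes, of which 8 control and 5 stressed barcodes passed the filters. They included 7 control neural-like cells of 7569 to 11166 UMIs and 4 stressed ones of 22086 to 28384 UMIs. The stressed over control ratio of Ptn in neural-like cells is therefore also given without them. The other neural values below include them.

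RefSeq promoter records on GRCm38.p6 were found for 7 of the 10 genes, in 9 windows of the 250 bases before a recorded start. Printed are the windows that lie wholly outside the annotated gene, those of Igfbp4, Mif and Vegfa. Igfbp4 was higher in border-associated macrophage-like than in microglia-like or neural-like cells. Mif was found in all main classes, and Vegfa mainly in neural-like cells. These windows let the promoter letters be set beside 3 different class patterns. Each runs 5′ to 3′. Capitals mark GAGGAA on either strand (TTCCTC on the other), a core of sites of the ETS family, to which the macrophage factor PU.1 belongs.

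Igfbp4 (chr11:99040994-99041243, plus strand): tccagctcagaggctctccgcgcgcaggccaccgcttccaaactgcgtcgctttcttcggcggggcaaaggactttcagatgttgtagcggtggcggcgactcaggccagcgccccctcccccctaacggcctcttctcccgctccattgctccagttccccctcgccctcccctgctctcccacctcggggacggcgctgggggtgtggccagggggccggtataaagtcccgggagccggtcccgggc
Mif (chr10:75860278-75860527, minus strand): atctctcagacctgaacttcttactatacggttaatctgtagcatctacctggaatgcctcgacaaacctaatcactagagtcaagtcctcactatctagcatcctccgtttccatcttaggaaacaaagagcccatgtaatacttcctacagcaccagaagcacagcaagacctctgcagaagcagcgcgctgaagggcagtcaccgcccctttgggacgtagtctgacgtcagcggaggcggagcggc
Vegfa (chr17:46032378-46032627, minus strand): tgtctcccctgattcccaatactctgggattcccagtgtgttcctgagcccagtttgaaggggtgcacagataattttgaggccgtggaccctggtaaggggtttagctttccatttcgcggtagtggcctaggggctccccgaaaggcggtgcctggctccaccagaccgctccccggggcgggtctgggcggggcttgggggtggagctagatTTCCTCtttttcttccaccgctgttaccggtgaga

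The word occurred once in this Vegfa window, at position −35 from the start, and not in the Igfbp4 or Mif window. Of the windows not printed, that of Igf1 held it at −60 and that of Grn at −176 and −164, while that of Ptn did not hold it. The whole Igf1 window, 192 bases of the Grn window with both words, and 41 bases of the Ptn window lie in annotated untranslated exon sequence of the same gene. The word was also in 1 of the 2 windows of Pdgfa and not in the other Vegfa window, and 23.3% of all 32851 windows of this length held it. AACAAT, a core of sites of the SOX family of neural progenitor factors, was in none of the members' windows and in 9.42% of all windows. These matches describe letters and not binding.

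The first question was which cell classes held each factor. Levels are given as CPM, the UMIs of a gene per 1000000 UMIs of all cells of a class in a library. Of 9 members measured (at least 10 CPM in either sum and 20 UMIs in both together), Vegfa, Ptn and Mdk were higher in neural-like than in microglia-like control cells by over 1.5 times, where 37.0% of all 8436 measured genes were. Igf1, Pdgfb, Grn and Igfbp4 were lower, as were 28.4% of all genes. The same genes passed 1.5 times in the stressed library, with Pdgfa added among the higher ones, beside 41.8% of all genes higher and 24.1% lower. Mif passed 1.5 times in neither library and Pdgfa not in the control, and Osm was not measured. The shares among all genes were also large, so nothing particular to the members is read from these counts.

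**Figure D1:**
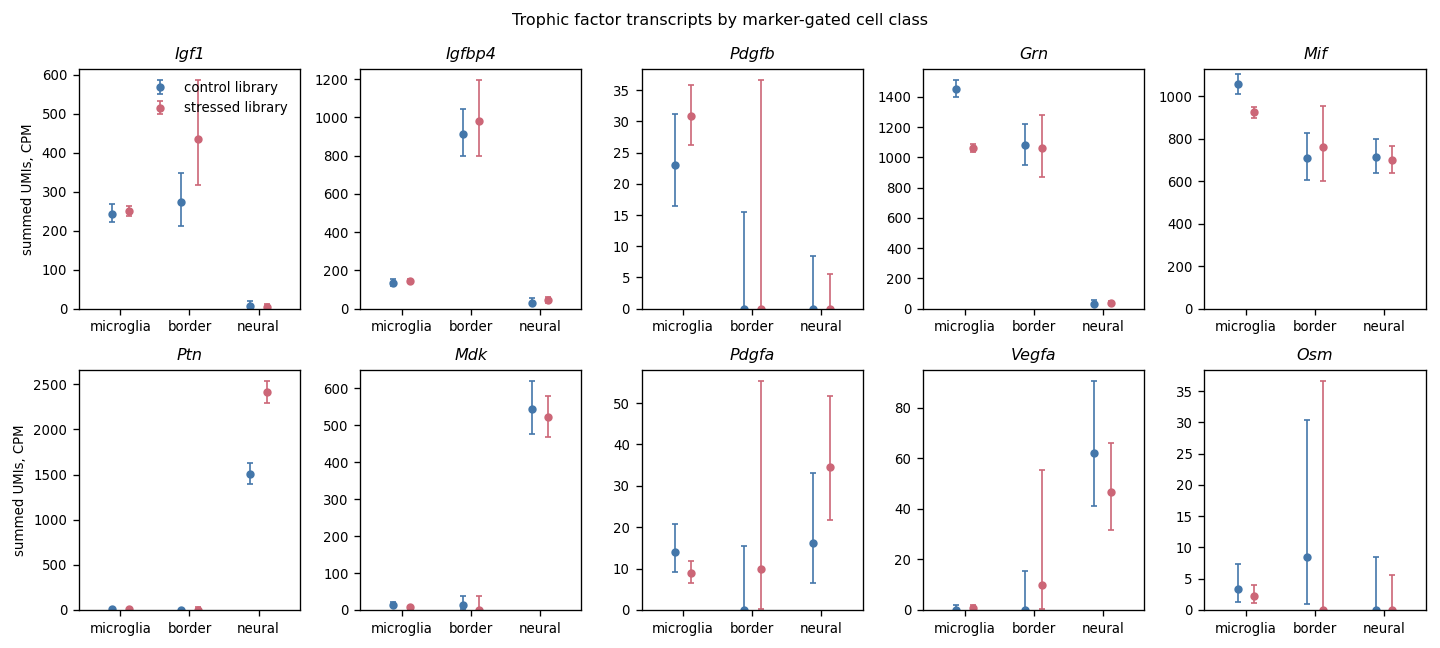
Summed UMIs of each member in CPM (y axes, linear and different between panels) in microglia-like, border-associated macrophage-like and neural-like cells, for the control (blue) and stressed (red) library; points are the summed levels and bars 95% Poisson intervals. Igf1, Grn and Pdgfb are near 0 in neural-like cells, Ptn, Mdk and Vegfa are near 0 in macrophages, and Igfbp4 is highest in border-associated cells.

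Igf1 (ENSMUSG00000020053) lies on chromosome 10 of GRCm38 from 87858265 to 87937042, on the plus strand. Microglia-like cells held 435 Igf1 UMIs in the control library, or 244 CPM (221 to 268), and 1339 UMIs, or 250 CPM (237 to 264), in the stressed library. Border-associated macrophage-like cells stood at 274 CPM (65 UMIs, 211 to 349) and 436 CPM (44 UMIs, 317 to 586). Neural-like cells held 3 UMIs in each library, 6.90 and 4.49 CPM. Among these classes Igf1 was thus a macrophage transcript in both libraries. It was 35.3-fold and 55.6-fold lower in neural-like than in microglia-like cells, with log2 differences of −5.14 (−7.43 to −3.59) and −5.80 (−8.08 to −4.25). In vascular or mesenchymal-like and monocyte or granulocyte-like cells Igf1 did not reach the measured minimum, so no level is read there.

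At a common depth of 1100 UMIs per cell, reached by random thinning, 99 of 628 control microglia-like cells (15.8%, interval 13 to 18.9%) and 183 of 1162 stressed ones (15.7%, 13.7 to 18.0%) had an Igf1 UMI. Thinning left out 56 control and 5 stressed shallower cells. None of 163 thinned control neural-like cells had one, which allows a share of up to 1.84%, and 1 of 144 stressed neural-like cells did (0.694%). Median depths before thinning were 1515 and 3110 UMIs in neural-like cells. The microglial share therefore lay well above that in a class that should lack the gene. Without thinning, 29.2% and 37.4% of microglia-like cells had an Igf1 UMI, and single cells held up to 11 and 18 UMIs. The overlapping antisense gene Igf1os had 3 and 1 UMIs in all cells kept. Whether the counting used strand is not given in the sources used here.

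The next question was how the factors varied among microglial states. Microglia-like cells were split by genes that include no member. S phase and G2/M were set by cell-cycle genes and Ccl3/Ccl4 cells by those 2 chemokines. Spp1-high cells had at least 30 Spp1 UMIs per 10000 (Spp1 encodes the secreted protein osteopontin), and the rest were called resting-type. Where a cell met several rules, a cycling state came first, then Ccl3/Ccl4, then Spp1-high. The Ccl3/Ccl4, S phase and G2/M states could thus also hold Spp1-rich cells. Of all microglia-like cells, 78 control and 80 stressed had 30 to under 100 Spp1 UMIs per 10000, and 65 and 61 had 100 or more. Resting-type cells numbered 336 control and 656 stressed, Spp1-high cells 74 and 68, Ccl3/Ccl4 cells 106 and 150, S phase cells 70 and 120, and G2/M cells 98 and 173. The states are ranges of a level and not separate types: 30 control and 35 stressed cells lay near the Spp1 minimum, and 53 and 107 near that for S phase. P2ry12, a microglial homeostatic receptor, stood at 1163 and 959 CPM in resting-type and at 349 and 366 CPM in Spp1-high cells.

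Igf1 was highest in Spp1-high cells in both libraries, at 474 CPM (125 UMIs, 395 to 565) in the control and 496 CPM (217 UMIs, 432 to 567) in the stressed library. Resting-type cells stood at 148 CPM (104 UMIs, 121 to 180) and 195 CPM (490 UMIs, 179 to 214). Spp1-high cells were thus 3.19-fold and 2.54-fold higher, with log2 differences of 1.68 (1.29 to 2.07) and 1.34 (1.11 to 1.58). Ccl3/Ccl4 cells were second in both libraries, at 301 CPM (242 to 370) and 334 CPM (295 to 377). G2/M cells stood at 188 CPM (143 to 242) and 248 CPM (219 to 280).

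S phase cells took different places in the order, at 277 CPM (57 UMIs, 210 to 359) in the control and 191 CPM (110 UMIs, 157 to 230) in the stressed library. In the control library the intervals of Ccl3/Ccl4 and S phase cells overlapped, as did those of S phase, G2/M and resting-type cells with their neighbours. In the stressed library the interval of S phase cells overlapped those of resting-type and G2/M cells. The difference between Spp1-high and Ccl3/Ccl4 cells was 0.66 (0.25 to 1.07) and 0.57 (0.30 to 0.84) on the log2 scale. Control Spp1-high cells held 28.7% of the class's Igf1 UMIs and 14.8% of all its UMIs, and stressed ones 16.2% and 8.16%.

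Of the members measured in these states, Igf1 and Mif were over 1.5 times higher in Spp1-high than in resting-type cells of the control library (2 of 5, beside 13.7% of all genes), and Igf1, Pdgfa and Mif in the stressed library (3 of 6, beside 12.8%). Igfbp4 was lower in the control library (1 of 5, beside 18.9% of all genes), and Igfbp4 and Pdgfb in the stressed library (2 of 6, beside 18.3%). The 7 UMIs of Pdgfa in stressed Spp1-high cells give a difference of 1.33 with an interval from −0.20 to 2.69. In Ccl3/Ccl4 cells, Igf1, Pdgfb and Mif were higher in the control library (3 of 5, beside 14.8%), and Igf1, Pdgfa, Pdgfb, Mif and Mdk in the stressed library (5 of 7, beside 11.2%). Igfbp4 was lower there in both (beside 14.3% and 12.5%).

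**Figure D2:**
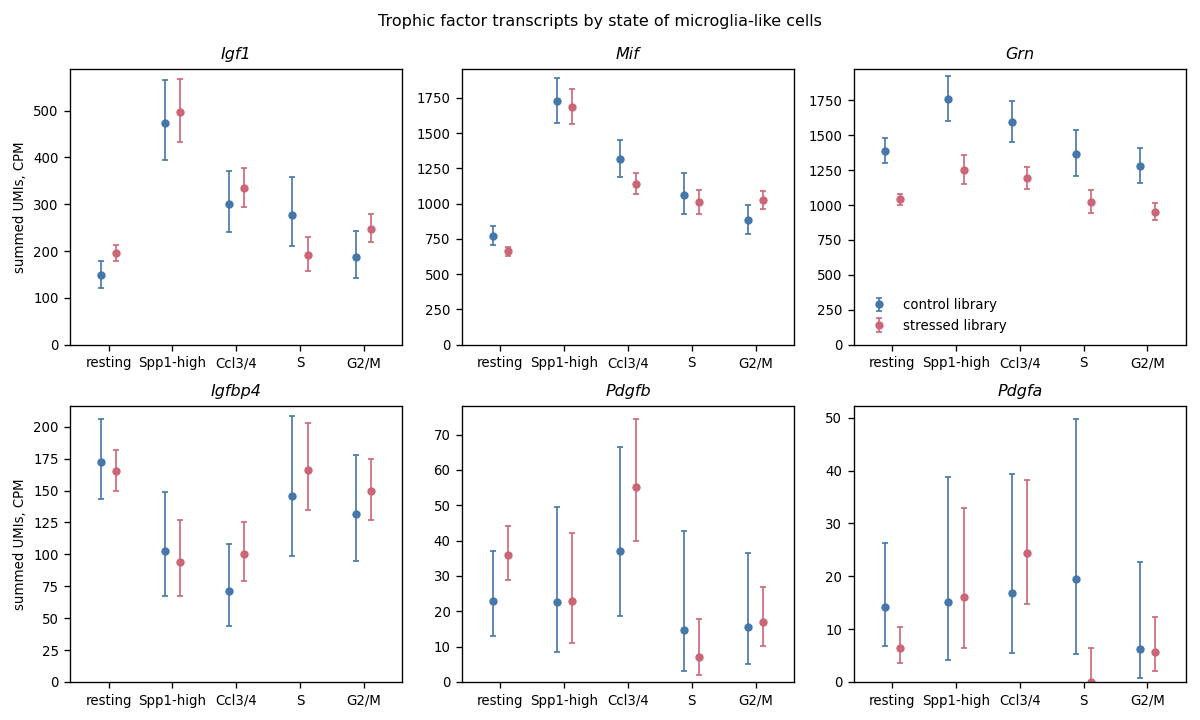
Summed UMIs in CPM (y axes, linear from 0) of 6 members in 5 states of microglia-like cells, control (blue) and stressed (red); points are summed levels and bars 95% Poisson intervals. Igf1 and Mif are highest in Spp1-high cells, Igfbp4 is lower in Spp1-high and Ccl3/Ccl4 than in resting-type cells, and Grn is lower in the stressed library in every state.

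Spp1 itself was graded, so all microglia-like cells, cycling ones included, were also grouped by their Spp1 level. Control Igf1 stood at 92.4 CPM in cells without Spp1, at 227 CPM below 10 Spp1 UMIs per 10000, at 244 CPM from 10 to under 30, at 386 CPM from 30 to under 100 and at 502 CPM from 100. Stressed Igf1 stood at 123, 258, 376, 442 and 551 CPM in the same order. The Igf1 level was therefore higher in each higher Spp1 group of both libraries, but the intervals of many neighbouring groups overlapped. They did so from the group at 227 CPM upward in the control and from that at 376 CPM upward in the stressed library. The control groups at 227 and 244 CPM, for example, had intervals of 175 to 291 and 169 to 340 CPM. Cells without Spp1 made up 56.1% and 59.4% of the class.

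Depth differed between these groups: the median was 1838.5 UMIs per cell without Spp1 and 4664 in the highest control group, and 3367 and 5985 in the stressed library. After thinning, with states assigned from all UMIs, 34.7% of control Spp1-high cells (25 of 72) and 10.8% of resting-type cells (32 of 295) had an Igf1 UMI. In the stressed library 25.0% (17 of 68) and 14.7% (96 of 654) did, with intervals of 15.3 to 37.0% and 12.1 to 17.6%, which overlapped.

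**Figure D3:**
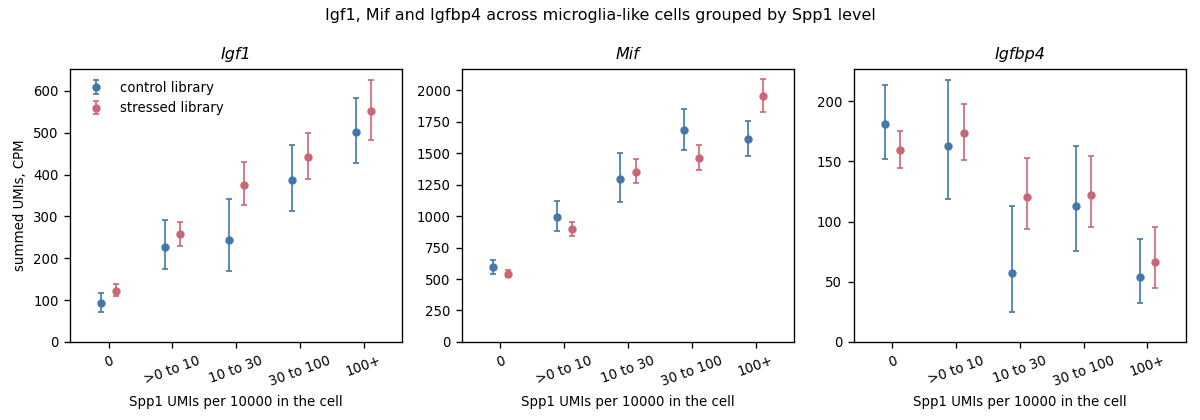
Levels of Igf1, Mif and Igfbp4 in CPM (y axes, linear from 0) in microglia-like cells grouped by Spp1 UMIs per 10000 in the cell (x axis), control (blue) and stressed (red), with 95% Poisson intervals. Igf1 runs from 92.4 to 502 CPM in the control and from 123 to 551 CPM in the stressed library, while Igfbp4 is lowest in the highest Spp1 group of both.

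Across 13 class and state sums of at least 20 cells, the genes whose log2(CPM + 10) was most like that of Igf1 were Ctsc (Pearson r 0.98), Plek (0.98), Cyba (0.97), Dhrs3 (0.97) and Uap1l1 (0.97), of 2577 genes considered. Ctsc encodes the lysosomal protease cathepsin C, Plek the protein kinase C substrate pleckstrin, and Cyba a subunit of the phagocyte NADPH oxidase. Of these sums 10 are states of the same class, microglia-like cells, and all come from the same libraries. The neural sums also sit far from the rest, so the values are a description. Over the 10 microglial state sums alone, a choice made after the values were seen, the closest were Fabp5 (0.96), Cotl1 (0.94), Lpl (0.93), Anxa5 (0.92) and Aprt (0.92). Fabp5 encodes a fatty acid binding protein and Lpl lipoprotein lipase. Spp1 stood at 0.80 and Csf1r, the receptor that maintains microglia, at −0.82 over the same sums.

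Igfbp4 (ENSMUSG00000017493, chromosome 11, 99041244 to 99054392, plus strand) encodes a binding protein of insulin-like growth factors and was most abundant in border-associated macrophage-like cells. These held 217 control UMIs, or 913 CPM (796 to 1042), and 99 stressed UMIs, or 982 CPM (798 to 1195). Microglia-like cells stood at 135 CPM (241 UMIs, 118 to 153) and 147 CPM (787 UMIs, 137 to 158). The difference was 6.76-fold and 6.68-fold, with log2 values of 2.76 (2.49 to 3.03) and 2.74 (2.42 to 3.04). Neural-like cells stood at 32.2 and 43.4 CPM. The levels in both classes of macrophages were close between libraries, with differences of 0.12 (−0.09 to 0.34) in microglia-like and 0.10 (−0.25 to 0.45) in border-associated cells.

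Within microglia-like cells, Igfbp4 was lower in Spp1-high and Ccl3/Ccl4 than in resting-type cells, and these are the states with the highest Igf1 levels. Resting-type cells stood at 173 CPM (121 UMIs) and 165 CPM (414 UMIs), Spp1-high cells at 102 CPM (27 UMIs) and 93.8 CPM (41 UMIs), and Ccl3/Ccl4 cells at 71.0 CPM (21 UMIs) and 100 CPM (78 UMIs). The difference from resting-type cells was −0.75 (−1.41 to −0.14) and −0.82 (−1.32 to −0.35) in Spp1-high cells, and −1.28 (−2.03 to −0.61) and −0.72 (−1.09 to −0.37) in Ccl3/Ccl4 cells. The size of these differences depended on the cells used. In Spp1-high cells of the stressed library it was under 1.5 times with states of thinned cells, −0.44 (−1.69 to 0.59), and by sub-clusters, −0.58, and in control female cells it was −0.65 (−1.89 to 0.43). In Ccl3/Ccl4 cells it was under 1.5 times in control female cells, −0.42 (−1.46 to 0.53), and in stressed thinned cells, −0.46 (−1.41 to 0.38). S phase cells, at 146 and 166 CPM, did not separate from resting-type cells.

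The receptor side of this axis lay mainly in neural-like cells. Igf1r stood at 28.0 and 27.1 CPM in microglia-like cells (50 and 145 UMIs) and at 140 and 124 CPM in neural-like cells (61 and 83 UMIs), control and stressed. Insr, the insulin receptor, stood at 19.0 and 13.4 CPM in microglia-like and at 29.9 and 38.9 CPM in neural-like cells. Igfbp2 and Igfbp5, other binding proteins, and Grb10, an adaptor that restrains the receptor, were picked after their values were seen: Igfbp2 had 0 microglial UMIs and 64 and 116 neural UMIs, Igfbp5 had 1 and 6 against 51 and 217, and Grb10 had 0 and 7 against 59 and 59. Of the 14 list genes that are not members, only Igf1r and Insr were measured in microglia-like cells, and Irs2, an insulin receptor substrate, and Igfbp7 had 10 and 15 and 3 and 7 UMIs.

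Mif (ENSMUSG00000033307, chromosome 10, 75859353 to 75860240, minus strand) was found in all 5 classes. Microglia-like cells stood at 1056 CPM (1885 UMIs, 1009 to 1105) and 924 CPM (4949 UMIs, 898 to 950), border-associated cells at 711 and 763 CPM, and neural-like cells at 715 and 701 CPM. In the few vascular or mesenchymal-like cells it stood at 426 CPM (13 UMIs) and 364 CPM (17 UMIs), and in the 14 control and 8 stressed monocyte or granulocyte-like cells at 84.3 CPM in both, from 2 and 3 UMIs. Among microglial states Mif was highest in Spp1-high cells. Spp1-high cells stood at 1726 CPM (455 UMIs) and 1683 CPM (736 UMIs) and resting-type cells at 771 CPM (540 UMIs) and 663 CPM (1662 UMIs). The difference was 1.16 (0.98 to 1.35) and 1.34 (1.22 to 1.47), and that of Ccl3/Ccl4 cells 0.77 (0.58 to 0.96) and 0.78 (0.66 to 0.90), although with states of thinned cells the control value was 0.40. S phase cells were also above resting-type cells, by 0.47 (0.23 to 0.69) and 0.61 (0.47 to 0.74). G2/M cells were above them by 0.63 (0.52 to 0.74) in the stressed and 0.20 (−0.02 to 0.41) in the control library. Mif has processed pseudogenes in the mouse genome, which could affect the authors' counting of its reads, so its level is uncertain.

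Grn (ENSMUSG00000034708, chromosome 11, 102430315 to 102437048, plus strand) was the most evenly spread microglial member: 90.8% of control and 92.9% of stressed microglia-like cells held a UMI. It stood at 1454 CPM (2596 UMIs, 1399 to 1511) in the control and 1060 CPM (5679 UMIs, 1033 to 1088) in the stressed library. Border-associated cells stood at 1081 and 1061 CPM and neural-like cells at 34.5 and 35.9 CPM (15 and 24 UMIs). The neighbouring Fam171a2, which overlaps Grn on the other strand, had 26 and 42 UMIs in all cells kept. In Spp1-high cells Grn stood at 1756 and 1251 CPM, above resting-type cells by 0.34 (0.18 to 0.50) and 0.27 (0.13 to 0.40), which is under 1.5 times.

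Pdgfb (ENSMUSG00000000489, chromosome 15, 79995874 to 80014977, minus strand), the pericyte-recruiting ligand, was low in microglia-like cells. Microglia-like cells held 41 control UMIs, or 23.0 CPM (16.5 to 31.2), and 165 stressed UMIs, or 30.8 CPM (26.3 to 35.9). No UMI was found in neural-like or border-associated cells of either library. The floor of 3 counts puts neural-like cells at least 3.33-fold lower in the control and at least 6.86-fold lower in the stressed library, and control border-associated cells at least 1.82-fold lower. In the stressed library the 18 border-associated cells were too few to show a difference. Vascular or mesenchymal-like cells held 1 UMI in 9 control cells, or 32.8 CPM (0.829 to 183), an interval that includes the microglial level. They held 6 UMIs in 6 stressed cells, or 128 CPM, above the microglial level. After thinning, 3.66% and 3.53% of microglia-like cells had a Pdgfb UMI, against 0 of 163 and 0 of 144 neural-like cells, which allows up to 1.84% and 2.08%.

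By state, Pdgfb was highest in Ccl3/Ccl4 cells, at 37.2 CPM (11 UMIs, 18.6 to 66.5) and 55.3 CPM (43 UMIs, 40.0 to 74.5), and lowest in S phase cells, at 14.6 CPM (3 UMIs) and 6.93 CPM (4 UMIs). Resting-type cells stood at 22.8 and 35.9 CPM. The stressed library separated the states: Ccl3/Ccl4 cells were above resting-type cells by 0.62 (0.06 to 1.16), or 0.55 as a mean of per-cell CPM, S phase cells stood at −2.37 (−4.28 to −0.97) and G2/M cells at −1.08 (−1.89 to −0.33) relative to them. In the control library the corresponding intervals included 0. The overlapping features Gm41361 and Mir7213 were not among the features counted.

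Pdgfa (ENSMUSG00000025856, chromosome 5, 138976014 to 138997370, minus strand), a mitogen of glial precursors, was low in microglia-like cells, at 14.0 CPM (25 UMIs) and 8.96 CPM (48 UMIs), and stood at 16.1 CPM (7 UMIs) and 34.4 CPM (23 UMIs) in neural-like cells. After thinning, 1.27% and 0.516% of microglia-like and 1.84% and 0.694% of neural-like cells had a UMI, so no class stood apart at this depth. In the stressed library 19 of its 48 microglial UMIs lay in Ccl3/Ccl4 cells, at 24.4 CPM (14.7 to 38.1) against 6.38 CPM (3.65 to 10.4) in resting-type cells, a difference of 1.94 (0.90 to 2.99). The control difference was 0.24 (−1.65 to 1.93), from 5 and 10 UMIs.

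Vegfa (ENSMUSG00000023951, chromosome 17, 46016993 to 46032369, minus strand), the main endothelial growth factor, had 0 control and 4 stressed UMIs in microglia-like cells. A count of 0 allows up to 1.68 CPM there. Neural-like cells held 27 UMIs, or 62.1 CPM (40.9 to 90.3), and 31 UMIs, or 46.4 CPM (31.5 to 65.9), at least 36.9-fold higher in the control library and 62.2-fold higher (log2 5.96, 4.46 to 7.92) in the stressed library. Vegfb, a related ligand, was instead a microglial transcript at 129 and 113 CPM (231 and 605 UMIs). Of the receptors of these ligands, Kdr had only 4 and 11 UMIs in microglia-like cells. The co-receptors Nrp1 and Nrp2 stood there at 42.6 and 42.6 CPM and at 29.1 and 36.6 CPM. In the 9 control and 6 stressed vascular or mesenchymal-like cells, the Vegf receptor genes Kdr and Flt1 and the Pdgf receptor gene Pdgfrb are part of the markers that define the class.

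Ptn (ENSMUSG00000029838, chromosome 6, 36714929 to 36810220, minus strand) was the most abundant member in neural-like cells. It stood at 1511 CPM (657 UMIs, 1397 to 1631) in the control and 2411 CPM (1610 UMIs, 2295 to 2532) in the stressed library, against 6.72 CPM (12 UMIs) and 7.65 CPM (41 UMIs) in microglia-like cells. The log2 difference was 7.81 (7.00 to 8.77) and 8.30 (7.85 to 8.78). After thinning, 33.7% and 37.5% of neural-like and 0.478% and 0.516% of microglia-like cells had a Ptn UMI. The microglial UMIs lay in few cells: 7 control cells held 91.7% of them, 12 stressed cells held 65.9%, and a stressed cell held up to 9. The source of these UMIs was not tested. In 9 control vascular or mesenchymal-like cells Ptn stood at 1179 CPM (36 UMIs) and in 6 stressed ones at 406 CPM (19 UMIs).

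Neural-like cells were split by progenitor genes such as Sox2, Nes and Hes5 and neuron genes such as Tubb3 and Dcx into 60 control and 67 stressed progenitor-type and 147 and 89 neuron-type cells. Ptn was mainly in progenitor-type cells, at 3097 CPM (582 UMIs) and 3965 CPM (1546 UMIs), against 304 CPM (75 UMIs) and 230 CPM (64 UMIs) in neuron-type cells. The difference was 3.35 (3.00 to 3.72) and 4.11 (3.74 to 4.49). In the stressed library 1 cell held 220 Ptn UMIs, and the 1% of neural-like cells with most Ptn held 25.3% of its control and 21.2% of its stressed UMIs.

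Mdk (ENSMUSG00000027239, chromosome 2, 91929805 to 91932297, minus strand) stood at 545 CPM (237 UMIs, 478 to 619) and 523 CPM (349 UMIs, 469 to 580) in neural-like cells and at 14.0 CPM (25 UMIs) and 8.77 CPM (47 UMIs) in microglia-like cells, a log2 difference of 5.28 (4.68 to 5.94) and 5.90 (5.45 to 6.37). It was less concentrated in progenitor-type cells than Ptn. Those stood at 676 and 723 CPM and neuron-type cells at 445 and 241 CPM, a difference of 0.60 (0.22 to 0.98) and 1.58 (1.20 to 1.99). Vegfa was higher in progenitor-type cells as well, at 112 CPM (21 UMIs) and 64.1 CPM (25 UMIs) against 24.3 and 21.6 CPM (6 UMIs each), by 2.20 (0.85 to 3.80) and 1.57 (0.25 to 3.15). Mif did not separate the neural types, with differences of −0.16 (−0.50 to 0.18) and 0.14 (−0.14 to 0.41).

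Of the members measured in neural-like cells, Vegfa, Ptn and Mdk were over 1.5 times higher in control progenitor-type cells (3 of 4, beside 25.3% of all genes), and those with Pdgfa and Igfbp4 in stressed ones (5 of 7, beside 23.9%). None was lower by that much, beside 22.9% and 22.6% of all genes. Ptprz1, the receptor of Ptn and Mdk, stood at 892 and 731 CPM in neural-like cells and had 1 and 10 UMIs in microglia-like cells; it was named after its values were seen. Of the other binding partners, Ncl (nucleolin) stood at 337 and 414 CPM, Lrp1 at 294 and 248 CPM, Sdc4 at 118 and 125 CPM and Notch2 at 94.1 and 86.6 CPM in microglia-like cells. In neural-like cells Ncl stood at 320 and 316 CPM, Lrp1 at 136 and 108 CPM, Sdc4 at 4.60 and 8.99 CPM and Notch2 at 384 and 282 CPM. Sdc4 and Lrp1 were therefore higher in microglia-like cells and Notch2 in neural-like cells of both libraries.

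**Figure D4:**
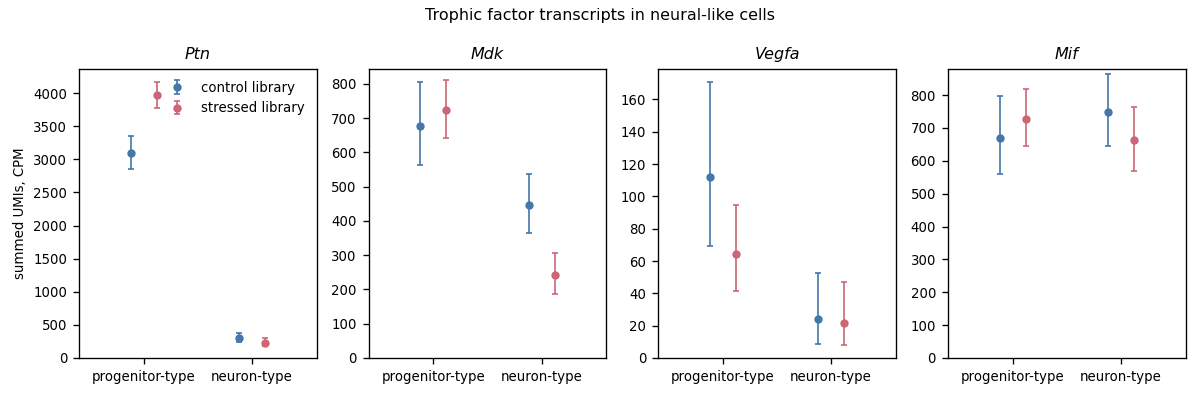
Levels of Ptn, Mdk, Vegfa and Mif in CPM (y axes, linear from 0) in progenitor-type and neuron-type neural-like cells, control (blue) and stressed (red), with 95% Poisson intervals. Ptn falls from 3097 and 3965 CPM in progenitor-type to 304 and 230 CPM in neuron-type cells, and Mif is similar in both.

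Osm (ENSMUSG00000058755, chromosome 11, 4236420 to 4241026, plus strand) was close to the detection limit, with 6 control and 12 stressed UMIs in microglia-like cells (3.36 and 2.24 CPM) and 0 in neural-like cells. Ccl3/Ccl4 cells held 4 of the 6 and 8 of the 12, at 13.5 CPM (3.68 to 34.6) and 10.3 CPM (4.44 to 20.3). No Spp1-high cell had an Osm UMI, which allows up to 11.4 and 6.86 CPM. Osmr, the specific receptor subunit, had no UMI in microglia-like or neural-like cells and was named after its values were seen. The shared subunit gene Il6st stood at 91.3 and 62.4 CPM in microglia-like cells, and its signalling partners Jak1 and Stat3 at 55.4 and 48.2 CPM and at 45.4 and 35.5 CPM. Lifr, which pairs with Il6st, stood at 7.84 and 11.0 CPM.

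The study's comparison of the stressed with the control pool was then made in microglia-like cells. Of 7 members measured, Pdgfa and Mdk were lower in the stressed library by over 1.5 times and none was higher, beside 8.04% of all 7634 measured genes lower and 3.01% higher. Both rest on few UMIs: the log2 ratio was −0.64 (−1.37 to 0.12) for Pdgfa and −0.67 (−1.40 to 0.09) for Mdk, and both intervals include 0. No measured member passed 1.5 times after TMM or DESeq2 size-factor scaling, in thinned cells or at a minimum of 50 CPM. Pdgfa and Mdk fell under the measured minimum in the last 2 of these settings, which therefore could not call them. Their ratios in thinned cells were −1.47 (−3.24 to 0.18) for Pdgfa and −2.27 (−4.11 to −0.69) for Mdk. Under a stricter cell filter neither gene passed and Pdgfb did, as higher, at 0.63. The microglial Mdk level was 14.0 and 8.77 CPM against 545 and 523 CPM in neural-like cells, and among cells with Xist and no Y-linked transcript its ratio was 0.46, from 4 and 47 UMIs. The median over the 7 members was −0.19 and over all measured genes −0.09.

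Stressed cells held 1.37-fold less Grn, which is −0.46 (−0.52 to −0.39) on the log2 scale. The ratio was −0.41 (−0.52 to −0.31) in resting-type, −0.49 (−0.67 to −0.31) in Spp1-high, −0.42 (−0.58 to −0.26) in Ccl3/Ccl4, −0.41 (−0.62 to −0.20) in S phase and −0.43 (−0.59 to −0.26) in G2/M cells. In female cells it ran from −0.57 in Spp1-high to −0.29 in G2/M and −0.09 (−0.43 to 0.28) in S phase cells, and differences between states were not tested. In border-associated cells it was −0.03 (−0.37 to 0.30). Scaling by TMM or DESeq2 size factors shifted all ratios up by 0.11, which moved Grn to −0.35. Psap, whose product prosaposin carries progranulin to lysosomes, stood at 1194 and 912 CPM, a ratio of −0.39 (−0.46 to −0.31). Tmem106b, a lysosomal membrane protein, had a ratio of −0.47 (−0.79 to −0.14). Sort1, of the same progranulin and Mif list, stood at 0.15 (−0.34 to 0.67) and was named after its values were seen. Over the 9 measured genes of that list that are not members, the median was −0.05, beside −0.09 over all measured genes.

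Mif had a log2 ratio of −0.19 (−0.27 to −0.12) in the class as a whole. By state the ratio ran from −0.22 (−0.36 to −0.07) in resting-type to 0.21 (0.02 to 0.41) in G2/M cells. In Ccl3/Ccl4 cells it was −0.21, or 0.09 (−0.34 to 0.53) with states of thinned cells. Igf1 had a ratio of 0.04 (−0.12 to 0.20), or −0.12 among female cells and −0.20 under a stricter cell filter. Within states it was 0.40 (0.09 to 0.72) in resting-type, 0.07 (−0.26 to 0.39) in Spp1-high, 0.15 (−0.20 to 0.52) in Ccl3/Ccl4, −0.54 (−1.01 to −0.05) in S phase and 0.40 (−0.01 to 0.83) in G2/M cells. As a mean of per-cell CPM the S phase value was 0.08. In female cells it was 0.43 (−0.08 to 0.99) in resting-type and −0.53 (−1.25 to 0.26) in S phase cells, and the interval of every state included 0. The difference between states was not tested. Spp1-high cells, which leave out cycling and Ccl3/Ccl4 cells, made up 10.8% of the control and 5.83% of the stressed class. In border-associated cells Igf1 was 1.60-fold higher in the stressed library, 0.67 (0.09 to 1.25), from 65 and 44 UMIs. It was under 1.5 times by Leiden clusters, 0.52, and as a mean of per-cell CPM, 0.55. It was the only one of 4 members measured there past 1.5 times, beside 31.3% of all genes either way.

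Pdgfb stood at 0.42 (−0.08 to 0.95), or −0.11 in thinned cells, and Igfbp4 at 0.12 (−0.09 to 0.34) in microglia-like cells. Ptn was 1.60-fold higher in stressed neural-like cells, 0.67 (0.54 to 0.81). The value was 0.82 without the shared barcodes, and it was under 1.5 times by Leiden clusters (0.57), in thinned cells (0.57) and in female cells (0.43). Pdgfa stood there at 1.10 (−0.17 to 2.56). Ptn and Pdgfa were 2 of 7 members measured in neural-like cells, beside 10.1% of all genes higher. Progenitor-type cells made up 29.0% of control and 42.9% of stressed neural-like cells. The Ptn ratio was 0.36 (0.22 to 0.50) within progenitor-type and −0.40 (−0.90 to 0.10) within neuron-type cells. Mdk stood at −0.06 (−0.30 to 0.18) in neural-like and at −0.88 (−1.34 to −0.43) in neuron-type cells. Depth, sex and the makeup of the neural class moved with these differences, and their part in them was not tested.

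**Figure D5:**
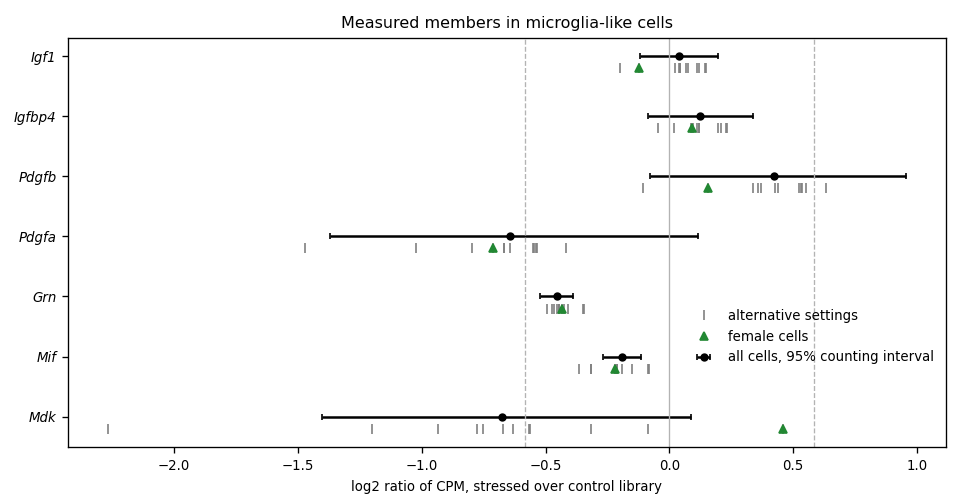
Log2 ratio of CPM, stressed over control, for the 7 members measured in microglia-like cells (x axis; black points with 95% counting intervals). Grey ticks are the alternative settings, green triangles the female cells, and dashed lines 1.5 times either way. Grn, Mif and Pdgfa are below 0 under every setting shown, and Igf1, Igfbp4, Pdgfb and Mdk lie on both sides of 0.

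The wider pathway lists were read in the same way in microglia-like cells, without the members. No list gene passed 1.5 times in the insulin-like growth factor list (0 of 2 measured, of 14), the Pdgf and Vegf list (0 of 3, of 12), the pleiotrophin and midkine list (0 of 4, of 11), the oncostatin M list (0 of 4, of 10) or among other trophic factors (0 of 7, of 27). In the progranulin and Mif list 1 of 9 measured genes (of 12) was higher: Cd74, the invariant chain that also binds Mif, at 11.8 CPM (21 UMIs) and 20.5 CPM (110 UMIs), a ratio of 0.80 (0.12 to 1.55). Medians ran from −0.28 in the insulin-like growth factor and oncostatin M lists to near 0 in the Pdgf and Vegf list, beside −0.09 over all genes. Below 1.5 times, Il6st stood at −0.55 (−0.82 to −0.27), Csf1, the microglial growth factor, at −0.37 (−0.54 to −0.19), Ncl at 0.30 (0.17 to 0.43) and Lrp1 at −0.25 (−0.39 to −0.10). Tnfrsf1a, a tumour necrosis factor receptor, and Ddt, a relative of Mif, stood at 0.01 (−0.26 to 0.30) and −0.30 (−0.61 to 0.00).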

How the data were processed

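Per the submitters' processing notes, Cell Ranger 3.0.0, STAR, Seurat 2.4 and the build GRCm38.p5 (mm10) were used, without the role of each. The deposited values were raw UMI counts per gene and barcode of called cells, 1 matrix per library, with no normalization by the authors, per the file headers.

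Cells under 500 genes or above 10% mitochondrial UMIs were dropped. A class was given to a cell when the markers of 1 list alone summed to its minimum per 10000 UMIs (microglia 30, border-associated macrophage 40, monocyte or granulocyte 40, neural 40, vascular or mesenchymal 20). Cells that passed only the microglia and border-associated lists were called border-associated where that sum was the higher. No list was passed by 64 control and 40 stressed cells, and 23 and 12 passed several and were given no class. States needed 15 (S phase, G2/M), 10 (Ccl3 and Ccl4) or 30 (Spp1) UMIs per 10000. A cycling state took precedence over Ccl3/Ccl4, and Ccl3/Ccl4 over Spp1-high. The erythroid and lymphoid lists made no class. Doublets were kept in the main values. Counts were summed by class or state and library and scaled to CPM, with exact Poisson intervals for levels, exact conditional intervals for ratios and Clopper-Pearson intervals for shares, all counting error only. A gene was measured at 10 CPM in either sum and 20 UMIs in both, and called at 1.5 times; a sum of 0 was set to 3 counts. The count step was tested on simulated data. Levels are CPM of 3′ counts, which do not depend on gene length.

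The members and gene lists were chosen with earlier results of these data known; marker lists were textbook genes. Named genes were all members, the 4 list genes with most microglial UMIs in each pathway list and those past 1.5 times, the 5 genes most like Igf1, and reference genes; exceptions are marked. Gene positions come from GENCODE M21 on GRCm38, in which 31011 of 31053 identifiers were found, and promoters from RefSeq. Tools were Python 3.11.15, scipy 1.17.1, scanpy 1.11.5, matplotlib 3.10.9, R 4.3.3, edgeR 4.0.16 and DESeq2 1.42.0, the last 2 for scaling factors alone.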

Additional observations from a re-analysis of the deposited data

Results flagged for a closer look

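Some effects of the stressed over the control library pointed in opposite directions between cell groups, with counting intervals that excluded 0 on both sides. The difference between the groups was not tested in any of these cases. For Igf1 the log2 ratio was −0.54 in S phase cells, against 0.40 in resting-type cells and 0.67 in border-associated macrophage-like cells. As a mean of per-cell CPM the S phase value was 0.08. In female cells the S phase value was −0.53 (−1.25 to 0.26) and the resting-type value 0.43 (−0.08 to 0.99), so both intervals included 0. By Leiden clusters the border-associated value was 0.52, under 1.5 times. For Mif the log2 ratio was 0.21 in G2/M cells, against −0.22 in resting-type and −0.21 in Ccl3/Ccl4 cells. The last of these was 0.09 with states of thinned cells.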

How the results depend on the processing

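No paired analysis was possible because each condition had 1 library. For 56 results, 375 values were recomputed. Of these, 313 stayed within the counting interval of the main value or, for counts of members, within 1.5 times of the main count. Another 51 lay outside that interval without a called ratio changing sign, and 10 were lower counts of members. The remaining 1 was a called ratio that changed sign, that of microglial Mdk, 0.46 in female cells. Counting uncalled results too, 23 values of 14 results had the other sign, and 29 values of 12 results, of 26 past 1.5 times, fell under that fold. Settings with shared barcodes removed, other Spp1 or class marker minima, per-cell means, the highest 1% of cells removed in classes and states, and female or thinned cells in classes were chosen after seeing the data. For the stressed over control ratio in microglia-like cells, Igf1 was −0.20 (−0.37 to −0.03) under a stricter filter (1000 genes, 5% mitochondrial UMIs) and −0.12 in female cells. Grn was −0.35 under TMM and −0.35 under DESeq2 size factors. Mif was −0.082 under TMM, −0.086 under DESeq2 size factors, −0.32 in thinned cells, −0.36 under the stricter filter and −0.32 in non-cycling cells. The number of members past 1.5 times was 0 at a minimum of 50 CPM, at 2 times, under TMM, under DESeq2 size factors and in thinned cells, and 1 under 5 settings: Pdgfb, as higher, under the stricter filter, Mdk without doublets and in non-cycling cells, and Pdgfa in female cells and in cells with less dissociation response. At 50 CPM and in thinned cells, Pdgfa and Mdk were under the measured minimum and could not be counted. For Spp1-high over resting-type cells, stressed Igf1 was 1.04 with states of thinned cells and 1.72 by sub-clusters, Mif was 1.39 and 1.57 by sub-clusters, and Igfbp4 was −2.42 in control thinned cells and −0.44 in stressed ones, −0.58 in stressed cells by sub-clusters and −1.34 at a Spp1 minimum of 60. For Ccl3/Ccl4 over resting-type cells, control Igfbp4 was −0.42 in female cells, and Pdgfb was 0.57 and 0.55 as a mean of per-cell CPM. For Igf1 in border-associated over microglia-like cells, the control value was −0.44 in female and 1.16 in thinned cells, and the stressed value 0.56 by Leiden clusters. For Igfbp4 in border-associated over microglia-like cells, the control value was 2.37 in female cells and the stressed value 2.04 by Leiden clusters and 3.09 in thinned cells. For Ptn in neural-like over microglia-like cells, the control value was 6.47 as a mean of per-cell CPM, 9.15 in female cells and 11.00 without the highest 1% of cells, which gave 9.57 in the stressed library. The stressed over control ratio of Ptn in neural-like cells was 0.82 without shared barcodes, 0.98 as a mean of per-cell CPM, 0.57 by Leiden clusters, 0.57 in thinned cells and 0.43 in female cells. Microglial Pdgfb was −0.11 and Igfbp4 −0.045 in thinned cells, and Ptn −0.99 as a mean of per-cell CPM. Causes were not tested. Vegfa, Osm and Ptn had 4, 18 and 53 UMIs in all microglia-like cells, too few to show small differences.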

Other observations

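Other trophic factors of microglia-like cells were read from the list of 27 further factors. Gas6, a ligand of the TAM receptors that drive engulfment of dead cells, stood at 329 and 372 CPM in microglia-like cells, control and stressed, and at 501 and 714 CPM in border-associated macrophage-like cells, with 1 and 2 UMIs in neural-like cells. Tgfb1, which maintains microglial identity, stood at 203 and 195 CPM, and Manf, an endoplasmic reticulum stress-responsive factor, at 236 and 210 CPM.

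Csf1, the ligand of the receptor that sustains macrophages, was the most state-dependent of these 4 genes. It stood at 578 and 536 CPM in Ccl3/Ccl4 cells, at 292 and 226 CPM in Spp1-high cells and at 114 and 88.9 CPM in resting-type cells, and no UMI was found in border-associated cells. Its order of states thus differed from that of Igf1, which was higher in Spp1-high than in Ccl3/Ccl4 cells in both libraries.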
